A study of Mus musculus with 10 samples.

Results

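The genes described here encode the classical guidance cues and their receptors: semaphorins with plexins and neuropilins, ephrins with Eph receptors, Slits with Robos, and netrins with Unc5 receptors. They were chosen by symbol alone, as every gene whose symbol begins with Sema and a digit, Plxn, Epha, Ephb, Efna, Efnb, Slit and a digit, Robo, Unc5 or Ntn and a digit, together with Nrp1, Nrp2 and Dcc. The rule matched 71 of the 18384 genes listed, and 63 of them were among the 14009 genes with enough reads to be tested. The symbols of 3 of the 71 match by their letters only. They are Unc50, a Golgi membrane protein, Unc5cl, a protein with a death domain, and Plxna4os1, an RNA from the strand opposite Plxna4, which leaves 68 guidance genes, 61 of them tested. Dcc, the attractive netrin receptor, was listed in no library.

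Guidance cues were first described as signals that steer growing axons, and they act in many other tissues on cell contact, migration, vessel growth and innervation. Semaphorins bind plexins, either directly or, for the secreted class 3 members, through neuropilins, and plexins act on small GTPases and the actin cytoskeleton. Ephrins are held on the cell surface and activate Eph receptor tyrosine kinases on the neighbouring cell, whereas Slits and netrins are secreted and bind Robo, Unc5 and Dcc receptors.

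mRNA-seq was performed on adipocyte precursors (APs), the stromal cells that give rise to fat cells, from the subcutaneous white fat of C57BL/6J mice. CD45- and CD31-positive cells had been depleted with magnetic beads and SCA-1-positive cells then selected. The control group holds 3 replicate cultures of APs in growth medium (replicates 1 to 3). The IL-4 group holds 3 cultures to which IL-4 was added the day after seeding (replicates 4 to 6). All were harvested on day 4. The paper and the sample titles do not say whether these cultures came from separate mice or cell isolations. The dose of IL-4 is not given in the sources used here. RNA was selected by its poly(A) tail, so the values are levels of mRNA, and protein was not measured.

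Libraries held 28526779 to 28674597 expected counts in control APs and 28914008 to 29057784 with IL-4. The 71 genes took 0.335% to 0.390% of the counts in control libraries and 0.231% to 0.303% in IL-4 libraries. Control replicate 3 and IL-4 replicate 6 stood apart from the other libraries of their groups: the chi-square of their counts per gene against the other libraries was 10.7 and 16.7 for the former and 45.3 and 36.3 for the latter, compared with 3.77 and 2.50 between the other pairs. The AP label was checked against 10 AP markers, all of which were detected, with a summed level of 6005 to 6317 FPKM (fragments scaled by transcript length and library size) in control and 9141 to 9860 FPKM in IL-4 libraries, most of it from the collagen genes Col1a1 and Col3a1. With IL-4, 7 of them rose and 2, Pdgfrb and Lum, fell (log2 fold changes -0.66 and -0.61). Ly6a, which encodes SCA-1, had 108 to 131 FPKM in control and 217 to 291 FPKM in IL-4 libraries. All 15 macrophage markers were detected as well, although CD45-positive cells had been depleted, at 4806 to 6277 FPKM in control and 2005 to 2690 FPKM in IL-4 libraries, and 13 of them were lower with IL-4. All 8 mural markers, of pericytes and smooth muscle cells, were lower with IL-4 (807 to 844 against 250 to 287 FPKM). Most of that sum was Acta2, with 779 to 819 FPKM in control and 240 to 279 FPKM in IL-4 libraries. Of the 8 Schwann or neural markers tested, 6 were lower and 1 was higher (104 to 109 against 64.4 to 67.4 FPKM). Most of that sum came from Ncam1 and Tubb3. Endothelial markers summed to 18.1 to 19.6 and 16.8 to 18.3 FPKM, with 6 of 10 lower and 2 higher. Of 6 mesothelial markers 2 could be tested, Wt1 and Krt19, and both rose (2.23 and 0.76 on the log2 scale), with a sum over the list of 6.44 to 7.36 and 9.79 to 11.4 FPKM. No lymphocyte marker reached the number of reads needed for a test, with 4 of 8 at 0 in all libraries. In bulk cultures like these, fewer cells of a type and less RNA per cell cannot be told apart, and the part of these other markers in the results below was not tested.

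IL-4 was set against control by the quasi-likelihood test of edgeR on all 14009 genes, p-values were adjusted by the Benjamini-Hochberg method, and a gene was said to rise or fall when its adjusted p was under 0.05. Of the 63 genes tested, 13 rose and 27 fell with IL-4, where 19.0% of all genes tested rose and 18.4% fell. Members that rose thus made up 20.6%, close to the share among all genes, and members that fell 42.9%. Beyond 2-fold, 3 rose and 15 fell, or 4.76% and 23.8%, where the shares were 5.77% and 5.26% among all genes. The median log2 fold change was -0.29 over the 63 genes, or -0.37 over the 61 guidance genes alone, and 0.00 over all genes. The replicates of the groups did not overlap for 14 of the guidance genes tested, with IL-4 above (25.2% of all genes), and for 32 with IL-4 below (25.3% of all genes). With libraries scaled by their totals in place of TMM (edgeR's scaling by a trimmed mean of ratios), which moved the median of all genes by -0.17 on the log2 scale, the share of rises among called genes went from 50.8% to 25.6% over all genes and from 32.5% to 21.4% over the members. FPKM follow the library totals and carry this shift, with a median of -0.17 over all genes by limma on log2(FPKM + 0.1). When both libraries that stood apart were left out, 15 members rose and 31 fell, and the shares among all genes were higher too, at 25.5% and 25.1%.

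**Figure D1:**
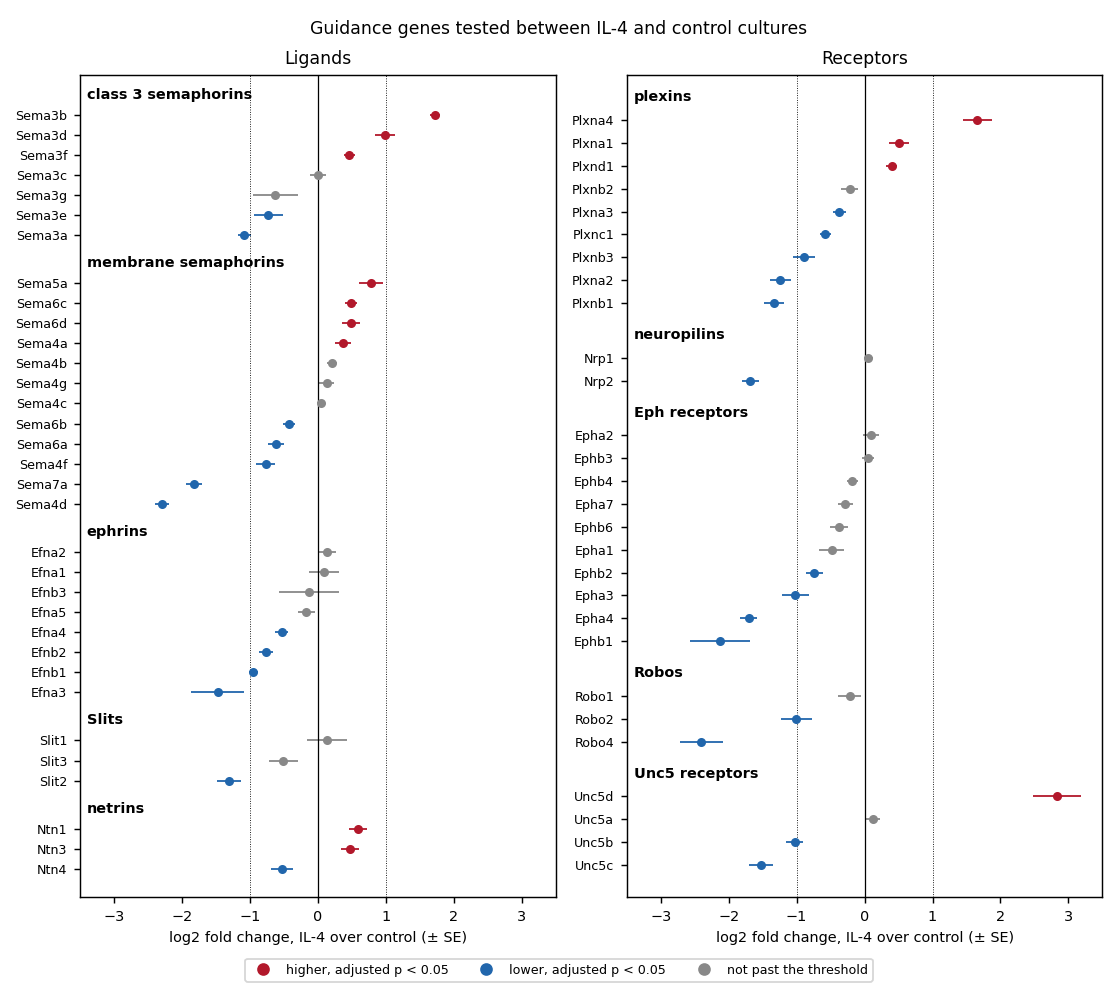
Log2 fold change (IL-4 over control, x axis) of the 61 guidance genes tested, from 3 libraries per group. Ligands are on the left and receptors on the right, grouped by family. Bars are standard errors (SE) derived from the F statistic of the test. Red points passed an adjusted p of 0.05 as higher (13 genes), blue points as lower (27 genes) and grey points did not pass (21 genes), and the dotted lines mark 2-fold.

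Guidance mRNAs were longer than most. The median transcript length was 4912 bases for the members tested and 2869 bases for all genes tested. Both libraries that stood apart held fewer reads from long transcripts: relative to the other libraries of its group, IL-4 replicate 6 had a median log2 ratio of 0.25 for transcripts under 2000 bases and -0.40 for those over 6000 bases, and control replicate 3 had 0.12 and -0.19. Of the 63 members, 52 (82.5%) were lower in IL-4 replicate 6 than in both other IL-4 libraries, compared with 42.7% of all genes, and 39 (61.9%) were lower in control replicate 3 than in both other controls, compared with 36.1% of all genes. Between the groups, the median log2 fold change of all genes went from 0.09 under 2000 bases to -0.11 over 6000 bases. Of the 23 members over 6000 bases, 6 rose and 14 fell, with a median of -0.61, where 13.4% of all genes of that length rose and 21.2% fell. The trend of each library's counts on length was also removed, which acts within groups as well as between them. With it removed, 14 members rose and 32 fell, with a median of -0.24, where 22.5% of all genes rose and 29.6% fell.

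**Figure D2:**
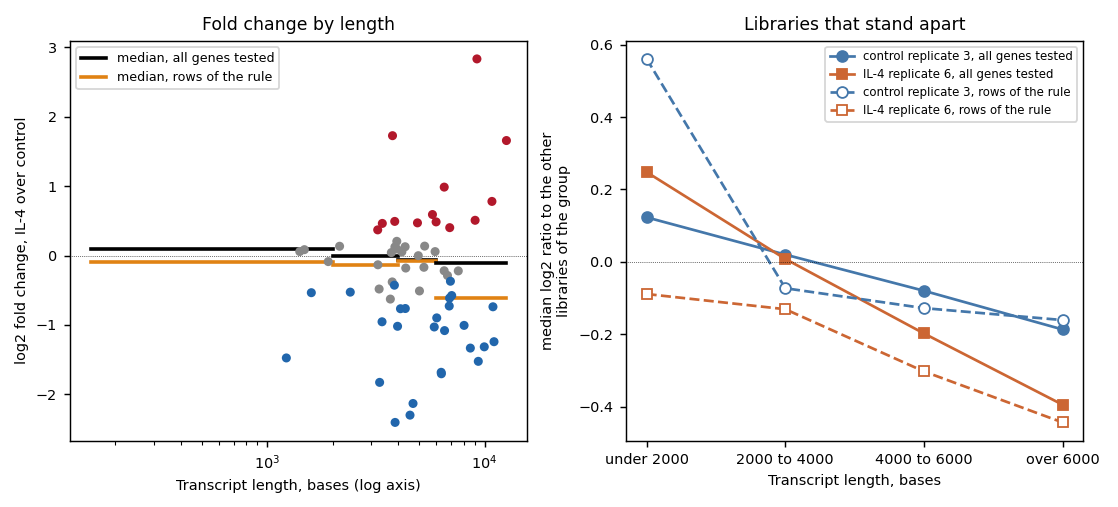
Left, log2 fold change (IL-4 over control) of the 63 genes tested against transcript length on a log axis, coloured as higher (red), lower (blue) or not past the threshold (grey), with the median of all genes tested (black) and of the 63 genes (orange) in 4 length bins that hold 5, 19, 16 and 23 of them. Right, median log2 ratio of the libraries that stood apart to the other libraries of their group in the same bins, which went from 0.25 to -0.40 for IL-4 replicate 6 and from 0.12 to -0.19 for control replicate 3 over all genes.

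Among the ligands, 9 of 33 tested rose and 13 fell (27.3% and 39.4%), where 19.0% of all genes rose and 18.4% fell. The secreted class 3 semaphorins moved in both directions, with 3 of 7 higher and 2 lower, and they were the 1 family whose summed level was higher in every IL-4 library (24.6 ± 1.23 FPKM in control and 37.9 ± 1.94 with IL-4, SD, n = 3). Sema3b, a ligand of neuropilin and plexin A complexes, accounted for most of this. Control libraries held 642, 744 and 649 normalized counts of it, and IL-4 libraries 2269, 2259 and 2205. The groups were far apart, and the IL-4 libraries differed from each other by less than the controls did. Its log2 fold change was 1.73 (SE 0.07, adjusted p = 1.33e-06 from edgeR), which is 3.31-fold, and its share of the class 3 semaphorin FPKM went from 27.6% ± 0.591 to 52.8% ± 3.01 (SD, n = 3).

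Sema3a, the class 3 semaphorin that repels axons through Nrp1, went the other way. Its libraries held 549, 570 and 553 normalized counts in control and 297, 262 and 231 with IL-4, and the groups did not overlap. It fell by 1.08 on the log2 scale (SE 0.10, adjusted p = 8.46e-05 from edgeR). The ratio of Sema3b to Sema3a in FPKM was thus 2.05 to 2.26 in control libraries and 13.4 to 16.7 in IL-4 libraries. Sema3c, the most abundant class 3 semaphorin in control APs at 7.36 ± 0.524 FPKM, had a log2 fold change of 0.00 (SE 0.12, adjusted p = 0.992), and IL-4 replicate 6 was its lowest library. Of the other members, Sema3d and Sema3f rose by 0.99 and 0.46 and Sema3e fell by 0.73 on the log2 scale, the last without its call when control replicate 1, control replicate 2 or IL-4 replicate 5 was left out (adjusted p = 0.0742, 0.101 and 0.0946).

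Of the 12 membrane-bound semaphorins tested, 4 rose and 5 fell, and their summed level was 55.2 ± 0.142 FPKM in control and 41.5 ± 2.68 FPKM with IL-4. Sema4d, a ligand of Plxnb1 known from T cells and osteoclasts, had the largest fall of any ligand. It was at 1048, 1086 and 1152 normalized counts in control libraries and at 229, 247 and 192 with IL-4, and no library of either group came near the other. Its log2 fold change was -2.30 (SE 0.10, adjusted p = 1.42e-06 from edgeR), a 4.92-fold lower level.

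Sema7a, which is anchored in the membrane by a glycolipid and binds Plxnc1 and integrins, had 760, 774 and 760 normalized counts in control libraries and 226, 246 and 176 with IL-4. The 3 controls were nearly equal, the groups did not overlap, and the gene fell by 1.83 on the log2 scale (SE 0.12, adjusted p = 1.13e-05 from edgeR). Sema4d went from 16.4% to 3.93% and Sema7a from 15.8% to 5.23% of the FPKM of the membrane semaphorins. Both are also expressed by immune cells, and 13 of the 15 macrophage markers fell in the same libraries, with a median log2 fold change of -0.95 over the list and a change of -1.64 for Lyz2, the most abundant of them. Of the other 2 markers, Mrc1 rose by 0.82 (adjusted p = 0.000466 from edgeR) and Cd68 did not pass (0.38, adjusted p = 0.0572). The part of macrophage RNA in these falls was not tested.

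Sema4b and Sema4c, the most abundant membrane semaphorins over the 6 libraries, differed little between the groups. Sema4b had 10.7 ± 0.512 FPKM in control and 10.9 ± 0.478 with IL-4, with a log2 fold change of 0.21 (SE 0.07, adjusted p = 0.0511 from edgeR), and it passed the threshold without IL-4 replicate 6 (adjusted p = 0.0087). Sema4c had a log2 fold change of 0.04 (SE 0.06, adjusted p = 0.622). The 4 rises, Sema5a, Sema6c, Sema6d and Sema4a, lay between 0.37 and 0.78 on the log2 scale, and the falls of Sema4f, Sema6a and Sema6b between -0.77 and -0.43. Sema6d lost its call without control replicate 1 or 3 or without IL-4 replicate 4 or 5, with changes of 0.40 to 0.45 beside 0.49 with all libraries (adjusted p from 0.0594 to 0.0821). Sema4a lost its call without control replicate 1 or 2 or IL-4 replicate 4 or 5. Its changes were then 0.30 to 0.42 beside 0.37 (adjusted p from 0.0594 to 0.133). With DESeq2 it did not pass either (adjusted p = 0.0584), and it was called under 6 of the 15 alternatives described below.

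No ephrin rose, and 4 of 8 fell. The summed ephrin level was 40.6 to 42.0 FPKM in control libraries and 22.9 to 23.8 FPKM in IL-4 libraries, and replicates lay close together in both groups. Efnb1 and Efnb2, transmembrane ephrins that can also signal back into the cell that carries them, were the most abundant. Efnb1 had 1632, 1651 and 1488 normalized counts in control and 817, 848 and 797 with IL-4, with a log2 fold change of -0.95 (SE 0.07, adjusted p = 1.83e-05 from edgeR). Efnb2 had 1322, 1419 and 1176 in control and 819, 823 and 667 with IL-4, a change of -0.76 (SE 0.11, adjusted p = 0.000763). Neither gene's groups overlapped.

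The ephrins A are held by a glycolipid anchor. Efna3 was the 1 ephrin beyond 2-fold, from low counts of 22, 29 and 47 in control and 13, 15 and 7.23 with IL-4 (log2 fold change -1.48, SE 0.39, adjusted p = 0.0185 from edgeR). Its highest library, control replicate 3, carried the call: without it the change was -1.12 (adjusted p = 0.0512). Efna4, which lies 10454 bases from Efna3 on chromosome 3, fell by 0.54 (adjusted p = 0.00217), and Efna1, 32948 bases from Efna3 on its other side, had a change of 0.09 that did not pass (adjusted p = 0.796).

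Slits, large secreted ligands of Robo receptors, held the most abundant guidance mRNA of control APs. Slit3 was at 101.83, 111.56 and 83.45 FPKM in control and at 73.41, 68.88 and 42.15 FPKM with IL-4. On the FPKM scale the groups did not overlap, but on that of normalized counts control replicate 3 (11125) lay just below IL-4 replicate 4 (11249). Slit3 did not pass (log2 fold change -0.51, SE 0.21, adjusted p = 0.0976 from edgeR), although it did with DESeq2 (adjusted p = 0.0334) and without both libraries that stood apart (-0.40, adjusted p = 3.26e-06).

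Slit2 fell clearly, from 10903, 12204 and 9072 normalized counts to 4950, 4803 and 3183. IL-4 replicate 6 was the lowest library, as it was for Slit3, but every control library lay well above every IL-4 library. The log2 fold change of Slit2 was -1.31 (SE 0.18, adjusted p = 0.000665 from edgeR), or 2.49-fold lower. The ratio of Slit3 to Slit2 in FPKM, which does not depend on how libraries are scaled, was 2.45 to 2.52 in control and 3.94 to 4.55 in IL-4 libraries.

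Of the 3 netrins tested, the secreted laminin-like cues, 2 rose and 1 fell. Ntn1, the best studied netrin, had 650, 605 and 516 normalized counts in control and 1013, 905 and 750 with IL-4, a log2 fold change of 0.59 (SE 0.13, adjusted p = 0.00776 from edgeR). Ntn4, a netrin of basement membranes, had 397, 442 and 388 in control and 340, 300 and 213 with IL-4, a change of -0.53 (SE 0.16, adjusted p = 0.0335). Ntn4 was 59.3% ± 1.99 of netrin FPKM in control and 40.3% ± 2.41 with IL-4, when Ntn1 held 52.5% ± 1.76 (SD, n = 3). The call of Ntn4 was lost without any 1 control library or without IL-4 replicate 5 (adjusted p from 0.0603 to 0.11). Ntn3 rose by 0.47, which it did not without any 1 of the controls, IL-4 replicate 4 or IL-4 replicate 5 (adjusted p from 0.0501 to 0.105). With DESeq2 Ntn3 did not pass either (adjusted p = 0.0518).

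**Figure D3:**
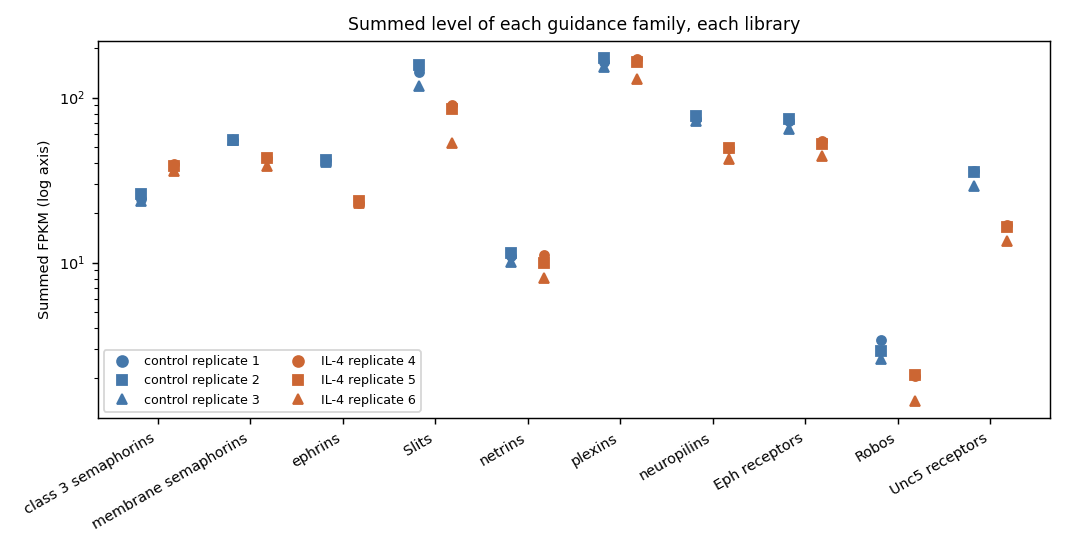
Summed FPKM of each guidance family on a log axis in each of the 6 libraries, controls in blue and IL-4 in orange, with marker shapes for replicates. Class 3 semaphorins were higher in every IL-4 library (35.9 to 39.7 against 23.7 to 26.0 FPKM), netrins and plexins overlapped between groups, and the other 7 families were lower in every IL-4 library.

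Among the receptors, 4 of 28 tested rose and 14 fell, where 19.0% of all genes rose and 18.4% fell. Beyond 2-fold, 2 receptors rose and 10 fell, where the shares among all genes were 5.77% and 5.26%. The 2 neuropilins, co-receptors for class 3 semaphorins and for VEGF, differed in response. Nrp1 had 6444, 6736 and 6399 normalized counts in control and 7126, 7122 and 6126 with IL-4. The groups overlapped through IL-4 replicate 6, and the log2 fold change was 0.06 (SE 0.07, adjusted p = 0.583 from edgeR). Nrp2 had 5472, 5859 and 5177 in control and 1841, 1928 and 1377 with IL-4, a log2 fold change of -1.68 (SE 0.12, adjusted p = 2.38e-05). The ratio of Nrp1 to Nrp2 in FPKM was 1.19 to 1.30 in control libraries and 3.83 to 4.75 in IL-4 libraries, with Nrp1 making up 55.2% ± 1.13 and 80.6% ± 1.77 of neuropilin FPKM (SD, n = 3).

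Of the 9 plexins, the signalling receptors for semaphorins, 3 rose and 5 fell, while their summed level overlapped between the groups (153 to 174 FPKM in control and 129 to 172 FPKM with IL-4). Plxnb2 was the most abundant, with 80.3 ± 5.58 FPKM in control and 61.2 ± 9.34 with IL-4. The change of -0.22 on the log2 scale (SE 0.12) did not pass (adjusted p = 0.211 from edgeR), and did without both libraries that stood apart (-0.14, adjusted p = 0.0215). Plxna1 had 10744, 10813 and 8872 normalized counts in control and 16594, 15451 and 11229 with IL-4, a change of 0.51 (SE 0.15, adjusted p = 0.028). The gap between the groups was small beside their spread, and the call was lost without any 1 of the controls or without IL-4 replicate 4 or 5 (adjusted p from 0.0565 to 0.0929).

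The plexins of class A that bind class 3 semaphorins through neuropilins parted from each other. Plxna4 had 933, 919 and 593 normalized counts in control and 2992, 2818 and 1901 with IL-4, with a log2 fold change of 1.66 (SE 0.22, adjusted p = 0.000553 from edgeR). Plxna2 had 945, 982 and 795 in control and 457, 401 and 293 with IL-4, a change of -1.24 (SE 0.16, adjusted p = 0.000491). In each group the library that stood apart was the lowest for both genes, and the groups did not overlap. Within a library, Plxna4 was at 0.654 to 0.864 times the FPKM of Plxna2 in control and at 5.66 to 6.15 times with IL-4. Both are among the longest guidance transcripts in the files (12602 and 11049 bases).

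Plxnb1, a receptor of Sema4d, was at 501, 508 and 413 normalized counts in control and at 215, 201 and 149 with IL-4. It fell by 1.33 on the log2 scale (SE 0.15, adjusted p = 0.000245 from edgeR). Both the ligand Sema4d and this receptor were thus lower in all IL-4 libraries. Plxnb2, the far more abundant plexin of class B, did not pass (-0.22, adjusted p = 0.211 from edgeR). Neither did Cd72, from the list of partners described below (-0.245, adjusted p = 0.164 from edgeR). Plxnc1, a receptor of Sema7a, fell by 0.58, as did Plxnb3 by 0.90 and Plxna3 by 0.37. Plxna3 was without its call when control replicate 1 or 2 was left out (adjusted p = 0.056 and 0.0667 from edgeR). Plxnd1, the plexin of vessels, rose by 0.40 (SE 0.08, adjusted p = 0.00526).

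**Figure D4:**
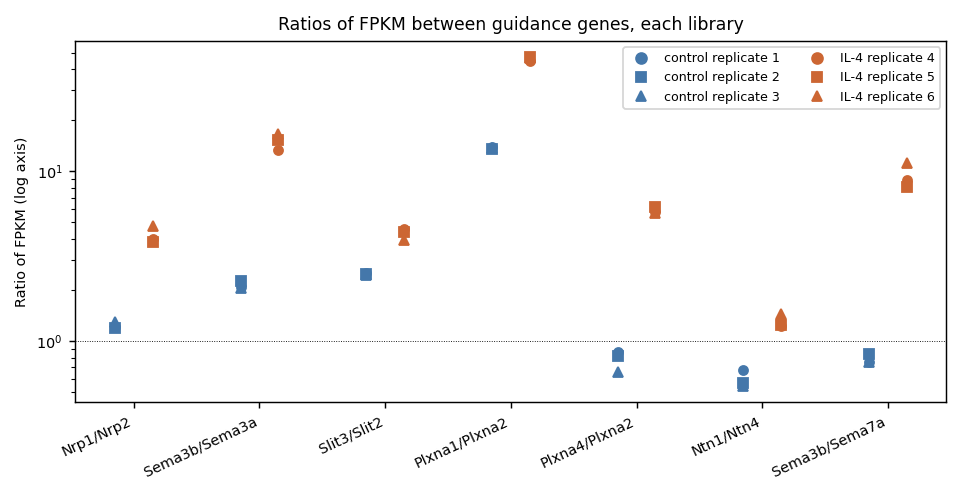
Ratio of FPKM between pairs of guidance genes within each library, on a log axis, controls in blue and IL-4 in orange. The pairs were chosen after their values were seen, and in all 7 the IL-4 libraries lay above the control libraries, as for Nrp1 over Nrp2 (1.19 to 1.30 and 3.83 to 4.75).

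Of the 10 Eph receptors tested, none rose and 4 fell, and their summed level was 64.8 to 74.2 FPKM in control and 44.3 to 54.2 FPKM in IL-4 libraries. Ephb3 and Ephb4, the 2 most abundant, did not pass. Ephb3 had 22.4 ± 1.38 FPKM in control and 20.7 ± 1.73 with IL-4 (log2 fold change 0.05, SE 0.09, adjusted p = 0.674 from edgeR). Ephb4, a receptor of Efnb2 on veins, had 20.3 ± 0.835 and 15.9 ± 1.29 FPKM (log2 fold change -0.18, SE 0.08, adjusted p = 0.127), and passed without both libraries that stood apart (-0.14, adjusted p = 0.0173).

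The falls beyond 2-fold were in Epha4, Epha3 and Ephb1. Epha4, a receptor that binds ephrins of both classes, had 468, 542 and 423 normalized counts in control and 164, 142 and 134 with IL-4 (log2 fold change -1.70, SE 0.13, adjusted p = 2.31e-05 from edgeR). Epha3 had 1315, 1544 and 1096 in control and 763, 736 and 454 with IL-4 (-1.02, SE 0.20, adjusted p = 0.00496). Ephb1 rested on few reads, with 22.8, 10.6 and 18.8 normalized counts against 5.35, 3.20 and 3.10 (-2.13, SE 0.44, adjusted p = 0.00627). None of the 3 overlapped between groups. Ephb2 fell by 0.74, and Epha1, Epha7 and Ephb6 were below control in all IL-4 libraries without passing (adjusted p from 0.0587 to 0.0771).

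Robos were expressed at a low level, with a sum of 2.61 to 3.39 FPKM in control and 1.45 to 2.09 FPKM with IL-4, beside Slits at 118 to 157 and 53.0 to 89.9 FPKM. Robo1, most of this sum, had 501, 441 and 392 normalized counts in control and 434, 424 and 287 with IL-4, which overlapped (log2 fold change -0.22, SE 0.17, adjusted p = 0.34 from edgeR). Robo4, known from endothelial cells, had 60.8, 38.4 and 36.6 in control and 7.49, 9.61 and 8.26 with IL-4, a change of -2.40 (SE 0.31, adjusted p = 0.00055). Robo2 had 73.2, 73.9 and 65.7 in control and 32.1, 48.0 and 25.8 with IL-4, a change of -1.01 (SE 0.23, adjusted p = 0.00898). The endothelial markers Cdh5, Emcn and Ptprb fell as well (log2 fold changes -1.60, -1.49 and -1.80), Tek and Vwf rose (0.81 and 3.08) and Pecam1 did not pass (-0.20, adjusted p = 0.235). The part of endothelial RNA in the fall of Robo4 was not tested.

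Unc5 receptors bind netrins, and Unc5b also binds Flrt proteins and acts in vessels. Unc5b took 92.9% ± 0.837 of their FPKM in control and 86.7% ± 0.846 with IL-4. It had 5324, 5247 and 4170 normalized counts in control and 2642, 2568 and 2015 with IL-4, with a log2 fold change of -1.03 (SE 0.13, adjusted p = 0.000459 from edgeR). Unc5c had 108, 126 and 116 in control and 49.2, 40.6 and 32.0 with IL-4, a change of -1.52 (SE 0.17, adjusted p = 0.00026). Unc5a had 1.88 ± 0.0289 FPKM in control and 1.82 ± 0.183 FPKM with IL-4 and did not pass (0.12, SE 0.11, adjusted p = 0.41). Unc5d was the only receptor of this family to rise (2.83, SE 0.35, adjusted p = 0.000415), from 3, 3 and 6 reads to 22, 32 and 25 reads, which is 0.097 FPKM on average with IL-4.

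**Figure D5:**
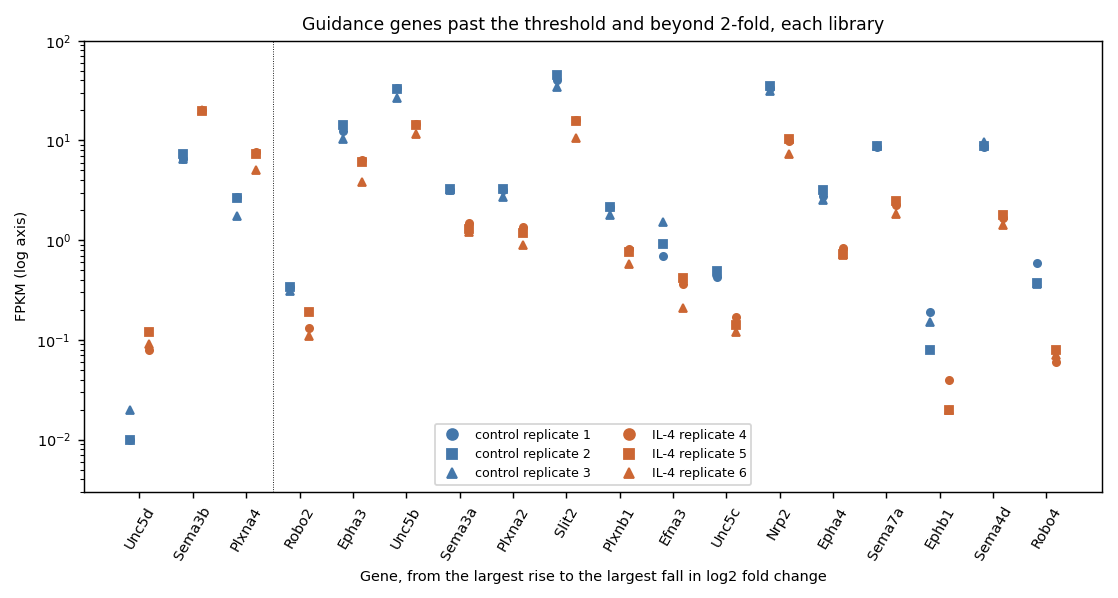
FPKM on a log axis of the 18 guidance genes that passed an adjusted p of 0.05 and changed beyond 2-fold, in each library, from the largest rise on the left to the largest fall on the right. The 3 left of the dotted line were higher with IL-4 (Unc5d, Sema3b and Plxna4) and the other 15 lower. In none of the 18 did the groups overlap. They were chosen by a test on these same libraries, so this adds no further support to their calls.

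Ordered by level, the leading guidance mRNAs of control APs were Slit3 (98.95 ± 14.3 FPKM) and Plxnb2 (80.3 ± 5.58), followed by Plxna1 (41.5 ± 4.19), Nrp1 (41.0 ± 0.852), Slit2 (39.8 ± 5.50), Nrp2 (33.3 ± 2.00) and Unc5b (31.1 ± 3.87), each with its SD over 3 libraries. Slit3 and Plxnb2 overlapped, as did Plxna1, Nrp1 and Slit2 among themselves, and so did Slit2 with Nrp2 and Nrp2 with Unc5b. With IL-4, Slit3 (61.5 ± 16.9), Plxnb2 (61.2 ± 9.34), Plxna1 (52.3 ± 9.48) and Nrp1 (37.8 ± 2.60) led, and the first 3 of these overlapped. Sema3b followed Plxnd1 (25.1 ± 2.20) and Ephb3 (20.7 ± 1.73) at 20.0 ± 0.141 FPKM, and overlapped with Ephb3. In every IL-4 library it lay above Slit2, Unc5b and Nrp2, which were at 14.2 ± 3.02, 13.5 ± 1.71 and 9.16 ± 1.60 FPKM. Sema3b, at 6.81 ± 0.454 FPKM, had lain below all 3 in control APs. Epha5, Epha6, Epha8, Epha10, Robo3, Ntn5 and Sema5b had too few reads for a test, with means of 0.08 FPKM or less in both groups.

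Several members are neighbours in the genome (coordinates of GRCm38.p6, the assembly of mm10). Sema3b (chr9:107597674-107609241) and Sema3f (chr9:107681499-107710475) are separated by 72258 bases and both rose. Efna3 (chr3:89313899-89322939) and Efna4 (chr3:89333393-89338028) both fell, as described. Robo4 fell, and Robo3, 2022 bases away on chromosome 9, had too few reads for a test. Its reads numbered 1, 7 and 0 in control libraries and 0 in all IL-4 libraries.

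IL-4 acts through the transcription factor STAT6, which binds TTCNNNNGAA, whereas other STAT factors prefer TTCNNNGAA. Both were looked for in RefSeq promoters (250 bases before to 50 bases after a start), each of them the same on both strands and without overlap between them in these matches. Promoters were found for 59 of the 68 guidance genes, and not for Slit1, Unc5d, Sema3b, Sema3f, Efnb3, Sema6a, Ntn1, Plxna1 and Plxna4. TTCNNNNGAA occurred in 5 of the 59 genes (8.47%) and in 8.01% of all genes (6.95% of all promoters), and TTCNNNGAA in 3 (5.08%) and in 9.55% of all genes (8.30% of all promoters), so the shares were close to or below those among all genes. The 5 genes with TTCNNNNGAA were all among the 26 with a promoter that fell, and none among the 7 that rose. The share with the motif among all genes that rose or fell was not computed. Sema3b, Plxna4 and Unc5d, which rose beyond 2-fold, had no promoter entry. A link between the motif and the direction of change was thus not tested. The matches of the 5 genes with TTCNNNNGAA are shown because they are the places where the motif lies in genes that changed. They are given 5′ to 3′ on the gene's strand in GRCm38.p6, with the motif in capitals and up to 10 bases on each side.
Sema3a, chr5:13396551-13396580, plus strand: gaagtactgtTTCTCTGGAAaatcaagcac
Sema3e, chr5:14025062-14025091, plus strand: gtgaacaaggTTCTGTGGAAacagtgaaca
Sema4f, chr6:82939884-82939913, minus strand: gtttccatccTTCTGAGGAAgaaacccaca
Plxna3, chrX:74328859-74328888, plus strand: aagggggctgTTCTCAGGAAgggatcccca
Efnb1, chrX:99135868-99135897, plus strand: aagcgccaacTTCCCTAGAActccctggga
The matches lie 134 to 223 bases before the start of the RefSeq promoter entry. For Sema3a (chr5:13124822-13603485) this start is inside the gene, as the promoter is chr5:13396534-13396833. The same holds for Plxna3 (chrX:74328290-74344689), with its promoter at chrX:74328816-74329115. Whether these starts were used in these cells was not tested. Of these 5 genes, Sema3a fell beyond 2-fold, and the others fell by 0.37 to 0.95 on the log2 scale. The shorter motif was found in Efna3 (TTCTGTGAA), Epha3 (TTCGCAGAA) and Sema3e (TTCCTAGAA). A match is a string of letters and does not show binding.

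A list of 23 partners of the guidance families holds co-receptors, further ligands and proteases that cut the cues. Of 20 tested, 6 rose and 3 fell, with a median log2 fold change of 0.045, where 19.0% of all genes rose and 18.4% fell. Flt1, the VEGF receptor that works beside neuropilins, rose most, from 2.83, 2.95 and 2.54 FPKM to 17.96, 16.79 and 11.84 FPKM (log2 fold change 2.66, SE 0.17, adjusted p = 1.1e-05 from edgeR). Ret, the receptor of the GDNF family, rose by 1.20 on the log2 scale (SE 0.12), and Flrt3 and Flrt2, membrane ligands of Unc5 receptors, by 1.06 (SE 0.13) and 0.68 (SE 0.09), in the same libraries in which Unc5b and Unc5c fell. Ptk7, a kinase-dead receptor that joins plexin A complexes, went from 32.45, 31.59 and 30.52 FPKM to 13.60, 12.96 and 11.11 FPKM (-1.15, SE 0.09, adjusted p = 3.35e-05). L1cam, which associates with Nrp1, and Ngfr, the p75 neurotrophin receptor, fell by 0.82 and 0.77. The count of falls was 5 without IL-4 replicate 6 (21.3% of all genes) and 7 when libraries were scaled by their totals (35.4% of all genes).

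Of 52 genes for effectors below these receptors, 50 were tested. Of these, 11 rose and 13 fell, with a median log2 fold change of -0.04, where 19.0% of all genes rose and 18.4% fell. When libraries were scaled by their totals 22 fell, where 35.4% of all genes fell. Mical2, an enzyme that oxidises actin filaments, had the largest fall, from 41.58, 42.45 and 35.28 FPKM to 9.84, 9.78 and 8.07 FPKM (-1.93, SE 0.12, adjusted p = 7.32e-06 from edgeR). Chn2, a Rac GTPase-activating protein, fell by 1.26 (SE 0.18), and the kinase Pak1 and the exchange factor Vav3 by 0.80 (SE 0.08) and 0.57 (SE 0.10). Limk1, the kinase that inactivates cofilin, went from 10.34, 10.28 and 10.17 FPKM to 22.88, 22.74 and 22.25 FPKM (1.31, SE 0.06, adjusted p = 1.61e-06), with replicates that hardly differed in either group. Ablim1, an actin-binding protein, rose by 1.45 (SE 0.13), the Src family kinase Fyn by 0.97 (SE 0.06) and the Rac exchange factor Tiam1 by 0.81 (SE 0.16). Rhoa, Rac1 and Cdc42, the small GTPases on which most of these proteins act, did not pass the test, with log2 fold changes of 0.00, 0.05 and -0.07.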

How the data were processed

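RNA from 3 control and 3 IL-4-treated cultures was sequenced by BGI on the BGISEQ-500. The authors filtered reads with SOAPnuke and used Bowtie2 and RSEM to quantify genes, and the submitters' processing notes also name HISAT, StringTie and the build mm10. The authors deposited, for each gene, an expected count from RSEM without normalization. Beside it stands the FPKM, in which the authors corrected for transcript length and sequencing depth. A gene absent from a library's list was set to 0. 1 row without a symbol (0.00016% of counts) was left out, and the 4 small RNA libraries were not used here. Reads shared between near-identical genes are split by RSEM, and 98.5% of the members' expected counts were whole. Strand handling is not given in the sources used here, so reads of Plxna4 and Plxna4os1 cannot be told apart with certainty.

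After rounding, genes were kept by filterByExpr at a minimum count of 10 and a total of 15, libraries were scaled by TMM, and the groups were compared by the quasi-likelihood test of edgeR 4.0.16 under R 4.3.3, adjusting p-values over the 14009 genes tested by the Benjamini-Hochberg method. A normalized count is the count per scaled library size, brought to the mean library size. The SE of a log2 fold change was derived from the test, as its absolute value over the square root of the F statistic. FPKM served for levels, sums, shares and ratios, with no test. The method was also run on simulated counts. These held no length trend and no library that stood apart, so the method was not tested under those conditions. Alternatives were other size factors, upper-quartile scaling, library totals, DESeq2 1.42.0, no filter, limma 3.58.1 on FPKM with a pseudocount of 1 or 0.1 (log2 scale), and each library left out. Leaving out both libraries that stood apart was chosen after seeing the data. So was removing the trend of each library's counts on transcript length by a loess curve (span 0.5). Library totals (28526779 to 29057784) set the precision of single values, which covers counting error only.

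The members, lists and tests were chosen with earlier results of these data known. Named were members past an adjusted p of 0.05 and beyond 2-fold, the 2 with the highest mean FPKM in each family, and of the partner and effector lists the 4 largest rises and falls that passed, with a mean of 100 or more normalized counts and groups that did not overlap. Other members are named where 5 or fewer passed, where a promoter matched, or for a threshold, and these, the ratios and the markers named singly were chosen after their values were seen. Promoters and coordinates are from RefSeq (GRCm38.p6). Figures were drawn with matplotlib 3.10.9.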

Additional observations from a re-analysis of the deposited data

How the results depend on the processing

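Of the 40 members called, 32 were called under all 15 alternatives, and none of the 40 changed direction. The exceptions were Efna3, Ntn3, Ntn4, Plxna1, Plxna3, Sema3e, Sema4a and Sema6d. Of the 18 members beyond 2-fold, 17 were called under all alternatives, the exception being Efna3, which changed by -0.86 without both libraries that stood apart (adjusted p = 0.0561). Leaving out 1 library at a time gave 9 to 14 members higher and 24 to 27 lower. Of all genes, 14.2% to 22.6% were higher and 13.5% to 21.3% lower in these fits. Beyond 2-fold, 3 to 4 members were higher and 11 to 15 lower, beside 812 to 835 and 699 to 738 of all genes. In the partner list 4 to 8 were higher and 3 to 5 lower, and in the effector list 9 to 15 and 9 to 13. Members lower beyond 2-fold numbered 8 with limma on log2(FPKM + 1), in place of 15, and among all genes 352, in place of 737. Lower effectors numbered 22 with library totals and 21 with limma at either pseudocount, in place of 13. Of all genes, 35.4% were lower with library totals and 35.0% to 35.1% with limma, in place of 18.4%. Lower partners numbered 7 with library totals, 6 with limma at either pseudocount, 5 with the length trend removed and 5 without both libraries that stood apart, in place of 3. In the last 2 settings, 29.6% and 25.1% of all genes were lower. Both settings were chosen after seeing the data, and the causes were not tested. Genes that gained a call under 1 or more alternatives were Slit3, Plxnb2, Ephb4, Ephb6, Epha1, Epha7, Sema4b, Efna5 and Nrp1. With 3 libraries per group, genes of a few reads such as Ephb1 and Unc5d are known only within wide errors. No paired analysis was possible because the control cultures are numbered 1 to 3 and the IL-4 cultures 4 to 6, so the mRNA-seq groups share no replicate number.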
